A study of Mus musculus with 14 samples.

Results

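Enteroendocrine cells are scattered hormone-secreting cells of the gut epithelium, and 8 genes that encode their peptide hormones, Pyy, Gcg, Insl5, Nts, Cck, Sct, Sst and Tac1, were followed here in the intestine of mice that lack the miR-29a and miR-29b-1 microRNAs. The members were found by gene symbol, and all 8 were present among the 55889 rows of the table without DSS and the 54721 rows of the table after DSS. RNA sequencing covered 14 mice on a C57BL/6N background, littermates 8 to 12 weeks old by the study's methods, in 2 experiments. Without treatment there were 4 wild-type (WT) mice and 4 MiR-29ab1-/- mice, which carry a germline deletion of MiR-29ab1 in every cell. In the other experiment 3 WT and 3 MiR-29ab1-/- mice drank water with 3.5% dextran sulfate sodium (DSS), a polymer that injures the colon epithelium, for 3 days before collection. The study states that a WT sample and a MiR-29ab1-/- sample were left out of its analysis, and names neither the experiment nor the reason. DSS-treated mice are numbered here as in the count table, since those numbers do not match the numbers of the sample labels. The labels number the mice within each genotype, across both experiments, and p-values measure the spread between these mice.

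As tissue, small intestinal crypts are named in the labels, whereas colon is named in the study's design and methods. Summed over 6 genes of the colon, the level was 1753 to 6583 CPM (counts of a gene scaled to a common library total, here all reads counted in that mouse), and over 12 genes of the small intestine it was 158 to 434 CPM. Epithelial markers (11 genes) summed to 13350 to 26874 CPM, while enteric neuron markers (12 genes) summed to 4.84 to 9.84 CPM and smooth muscle markers (7 genes) to 1.04 to 3.39 CPM. Total counts were 17177177 to 18185020 in WT and 14231157 to 16100607 in MiR-29ab1-/- mice without DSS, so every knockout library was the smaller, and 20076719 to 23153149 after DSS. The floor used here, 3 reads, was 0.130 to 0.211 CPM, and every value of the 8 genes lay above it. The deleted hairpins gave too few reads in either genotype to check the labels, but the neighbouring long non-coding RNA Lncpint had 6 to 23 reads in the 7 WT mice and 706 to 2889 in the 7 MiR-29ab1-/- mice, with no overlap. Reads on mitochondrial genes made up 5.71% to 13.9% of a library except in MiR-29ab1-/- DSS mice 1 and 2, where they made up 14.8% and 20.2%.

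On GRCm38 the genes lie at chr11:102106676-102107832 (Pyy, minus strand), chr2:62474530-62483650 (Gcg, minus), chr4:103017872-103026842 (Insl5, minus), chr10:102481756-102490486 (Nts, minus), chr9:121489824-121495694 (Cck, minus), chr7:141278330-141279133 (Sct, minus), chr16:23889573-23890958 (Sst, minus) and chr6:7554879-7565834 (Tac1, plus). All are protein-coding, and none overlaps another gene of GENCODE vM21 on either strand.

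Each enteroendocrine cell makes a characteristic set of peptides, which it packs into granules with chromogranins and releases on its basal side when nutrients or microbial products reach its surface. L cells, the main peptide cells of the large intestine, make peptide YY (Pyy), the glucagon-like peptides cut from proglucagon (Gcg) and, in the distal gut, insulin-like peptide 5 (Insl5). Neurotensin (Nts), cholecystokinin (Cck) and secretin (Sct) slow gastric emptying, contract the gall bladder and drive bicarbonate secretion. Somatostatin (Sst) from D cells restrains other endocrine cells. Tac1 encodes substance P, which enterochromaffin cells and enteric neurons both make.

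The microRNAs removed by the deletion share their seed, the bases that pair with target RNAs, and are shown because a match to it is how a direct target would be recognised in the 3′ UTR of a hormone gene. Capitals mark the seed (bases 2 to 8), and the sequences are those of RefSeq on GRCm38.p6, minus strand, at chr6:31062673-31062694 for miR-29a-3p and chr6:31063025-31063047 for miR-29b-3p. The miR-29b-3p sequence is also encoded at chr1:195037091-195037113 on the plus strand, outside the deleted locus.
miR-29a-3p: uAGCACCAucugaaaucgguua
miR-29b-3p: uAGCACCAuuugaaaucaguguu
Neither TGGTGCT, which pairs with bases 2 to 8, nor GGTGCTA, which pairs with bases 2 to 7 and is followed by A, was found in the longest annotated 3′ UTR of any of the 8 hormone genes (156 bases in Sst to 575 in Nts, GENCODE vM21). Over all 20992 genes with a 3′ UTR of at least 10 bases, 13.1% held the TGGTGCT match and 16.0% held either, over UTRs of all lengths.

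By level per length (RPKM, the CPM divided by the gene's length in kilobases), Pyy was highest in all 4 groups, with 53.0 ± 7.91 RPKM (SD, n = 4) in WT mice without DSS. Sct (27.6 ± 2.98), Insl5 (27.4 ± 4.56) and Gcg (24.7 ± 2.31) followed as RPKM in the same WT mice and did not differ beyond their spread, since Sct exceeded Insl5 in 1 of 4 mice and Insl5 exceeded Gcg in 3 of 4. Sst (7.83 ± 2.09 RPKM), Nts (4.78 ± 0.817), Tac1 (1.87 ± 0.303) and Cck (1.19 ± 0.259) came after them, each above the next in 4 of 4 WT mice. Cck was the lowest of the 8 in every group by mean RPKM. After DSS, Tac1 moved up the order: it reached 21.0 ± 13.2 RPKM (SD, n = 3) in MiR-29ab1-/- mice, near Gcg at 21.5 ± 0.619 RPKM, which it exceeded in 2 of the 3 mice.

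**Figure D1:**
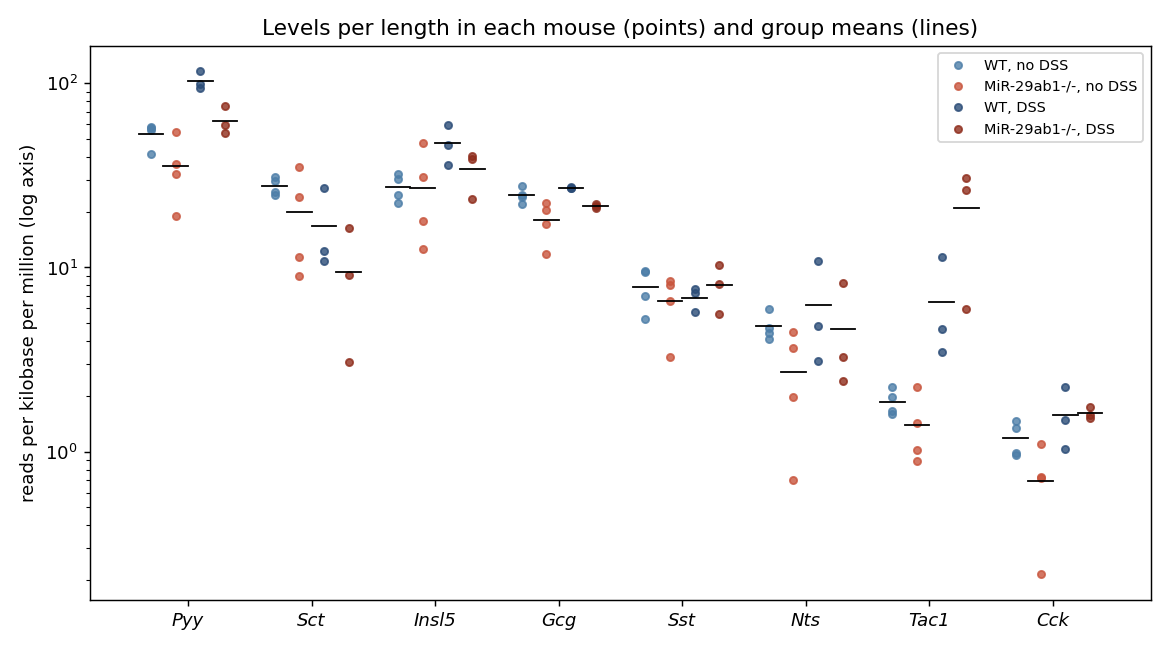
Level per length (RPKM, log axis) of the 8 hormone genes, ordered by the WT mean without DSS. Points are single mice (4 per group without DSS, 3 after DSS) and lines are group means. Pyy is highest and Cck lowest in every group, and Tac1 spans from 0.889 RPKM in a MiR-29ab1-/- mouse without DSS to 30.5 RPKM in a MiR-29ab1-/- mouse after DSS.

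The first comparison asked whether loss of MiR-29ab1 altered hormone transcripts in untreated mice. Gcg was lower in the knockout at the unadjusted threshold of p under 0.05, and the fitted difference was negative for all 8 genes, but none passed adjustment over the 15441 genes (0.0194% of them did). Lower calls made up 1.58% of those genes and higher calls 2.09%, against 1 of 8 and 0 of 8 hormone genes. No hormone gene was lower in every knockout mouse than in every WT mouse, as 0.939% of those genes were. The median log2 fold change was -0.46 over the 8 genes and 0.00 over all genes tested. In tissue RNA, fewer cells of a type and less hormone RNA per cell cannot be told apart.

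Among the L cell genes, Gcg had 36.1, 33.0, 41.3 and 37.1 CPM in WT mice 1 to 4 and 33.5, 30.7, 25.6 and 17.6 CPM in MiR-29ab1-/- mice 1 to 4. Only knockout mouse 1 reached into the WT range. The log2 fold change was -0.45 ± 0.17 (SE, 95% interval -0.82 to -0.08), with adjusted p = 1.00 in edgeR's quasi-likelihood test. Gcg missed the unadjusted threshold without WT mouse 3 (-0.40) or MiR-29ab1-/- mouse 3 (-0.42), and passed it without MiR-29ab1-/- mouse 4 at a log2 fold change of -0.30. Pyy had 35.0, 36.2, 26.0 and 36.5 CPM in WT mice and 34.2, 22.9, 20.2 and 12.02 CPM in MiR-29ab1-/- mice, so that 3 of the 4 knockout mice lay below the lowest WT mouse. Its log2 fold change was -0.58 ± 0.27 (SE; 95% interval -1.20 to 0.04), and the same value passed the unadjusted threshold in DESeq2. Pyy also passed it in edgeR without WT mouse 3 (log2 fold change -0.69) or without MiR-29ab1-/- mouse 1 (-0.87), and without MiR-29ab1-/- mouse 4 its value shrank to -0.38 and did not pass. Insl5 had 17.8, 23.2, 16.2 and 22.0 CPM in WT mice and 34.2, 22.4, 12.9 and 9.13 CPM in MiR-29ab1-/- mice. Its group means were nearly equal (19.8 ± 3.30 and 19.7 ± 11.2 CPM, SD, n = 4), with the knockout mice on both sides of the WT range (log2 fold change -0.01, 95% interval -0.86 to 0.84). The fitted value turned positive in 4 of the 8 fits that left out a mouse for Insl5 (up to 0.22) and in 1 of 8 for Sst (0.0029).

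Pyy and Gcg, which passed the unadjusted threshold after DSS (Pyy) and without it (Gcg), have the following promoters, shown from 250 bases before to 50 after the start of transcription that lies nearest to the gene's start in the count tables. They were taken from RefSeq on GRCm38.p6, minus strand, at chr11:102107783-102108082 for Pyy and chr2:62483604-62483903 for Gcg, and capitals mark the E box CANNTG, the core to which basic helix-loop-helix factors such as Neurod1 bind.
Pyy: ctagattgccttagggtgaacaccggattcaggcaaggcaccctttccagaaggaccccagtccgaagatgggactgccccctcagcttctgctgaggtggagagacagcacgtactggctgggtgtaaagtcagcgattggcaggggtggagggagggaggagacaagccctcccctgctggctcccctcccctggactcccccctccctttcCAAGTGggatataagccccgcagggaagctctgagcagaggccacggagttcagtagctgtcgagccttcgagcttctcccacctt
Gcg: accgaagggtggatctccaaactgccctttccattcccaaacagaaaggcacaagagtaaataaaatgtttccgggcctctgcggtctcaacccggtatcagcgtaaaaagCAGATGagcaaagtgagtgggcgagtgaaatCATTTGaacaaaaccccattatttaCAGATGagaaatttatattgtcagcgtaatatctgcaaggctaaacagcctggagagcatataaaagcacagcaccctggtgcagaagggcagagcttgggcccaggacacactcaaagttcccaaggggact
The E box was present at 1 place in the Pyy window and at 3 in that of Gcg, and 72.3% of all 32851 promoters of this length held it. The TATA box TATAAA was present at 2 places in the Gcg window and at none in the Pyy window (13.6% of promoters). Both motifs were searched on both strands, and their matches may share bases.

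Of the hormones of other lineages, Nts had 5.48, 5.12, 7.43 and 5.83 CPM in WT mice and 0.870, 2.48, 5.56 and 4.57 CPM in MiR-29ab1-/- mice (log2 fold change -0.81 ± 0.44 SE, 95% interval -1.80 to 0.18). Cck had 1.29, 1.92, 1.25 and 1.76 CPM in WT mice and 0.937, 1.43, 0.948 and 0.281 CPM in MiR-29ab1-/- mice (-0.78 ± 0.42, 95% interval -1.70 to 0.14), from 4 to 33 reads a mouse. Sct had 15.9, 18.9, 19.9 and 16.5 CPM in WT mice and 5.83, 15.5, 22.8 and 7.31 CPM in MiR-29ab1-/- mice (-0.47 ± 0.38, 95% interval -1.34 to 0.41). For each of these 3 genes, 3 of 4 knockout mice lay below the WT range, mice 1, 2 and 4 for Nts and Sct and mice 1, 3 and 4 for Cck. Without MiR-29ab1-/- mouse 3, Nts (log2 fold change -1.16), Sct (-0.89) and Tac1 (-0.73) passed the unadjusted threshold, and without MiR-29ab1-/- mouse 2 Cck did (-1.07). Without MiR-29ab1-/- mouse 1 the values shrank to -0.50 for Nts and -0.23 for Sct, and without MiR-29ab1-/- mouse 4 to -0.28 for Sct, -0.50 for Cck and -0.25 for Tac1, which was -0.27 without mouse 2. Sst, the D cell hormone, was at 3.78 to 6.93 CPM in WT and 2.36 to 6.11 CPM in MiR-29ab1-/- mice (-0.24 ± 0.31, 95% interval -0.92 to 0.45). Tac1 was at 5.42 to 7.64 CPM in WT and 3.02 to 7.65 CPM in MiR-29ab1-/- mice (-0.41 ± 0.29, 95% interval -1.06 to 0.23). The spread between mice, as SD over mean, was wider in MiR-29ab1-/- than in WT mice for each of the 8 genes, at 26.0% to 62.4% against 9.36% to 26.7%. This difference was not tested, and its share over all genes was not computed. After DSS the spread was wider in WT mice for Cck (38.6% against 7.26%) and Tac1 (66.0% against 62.9%), and in MiR-29ab1-/- mice for the others. The 8 genes summed to 60.1 to 120 CPM in the knockout mice and 124 to 132 CPM in WT mice, without overlap. After DSS these sums overlapped, at 157 to 216 CPM in MiR-29ab1-/- and 176 to 195 CPM in WT mice. How often sums of other genes separate the genotypes was not tested.

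**Figure D2:**
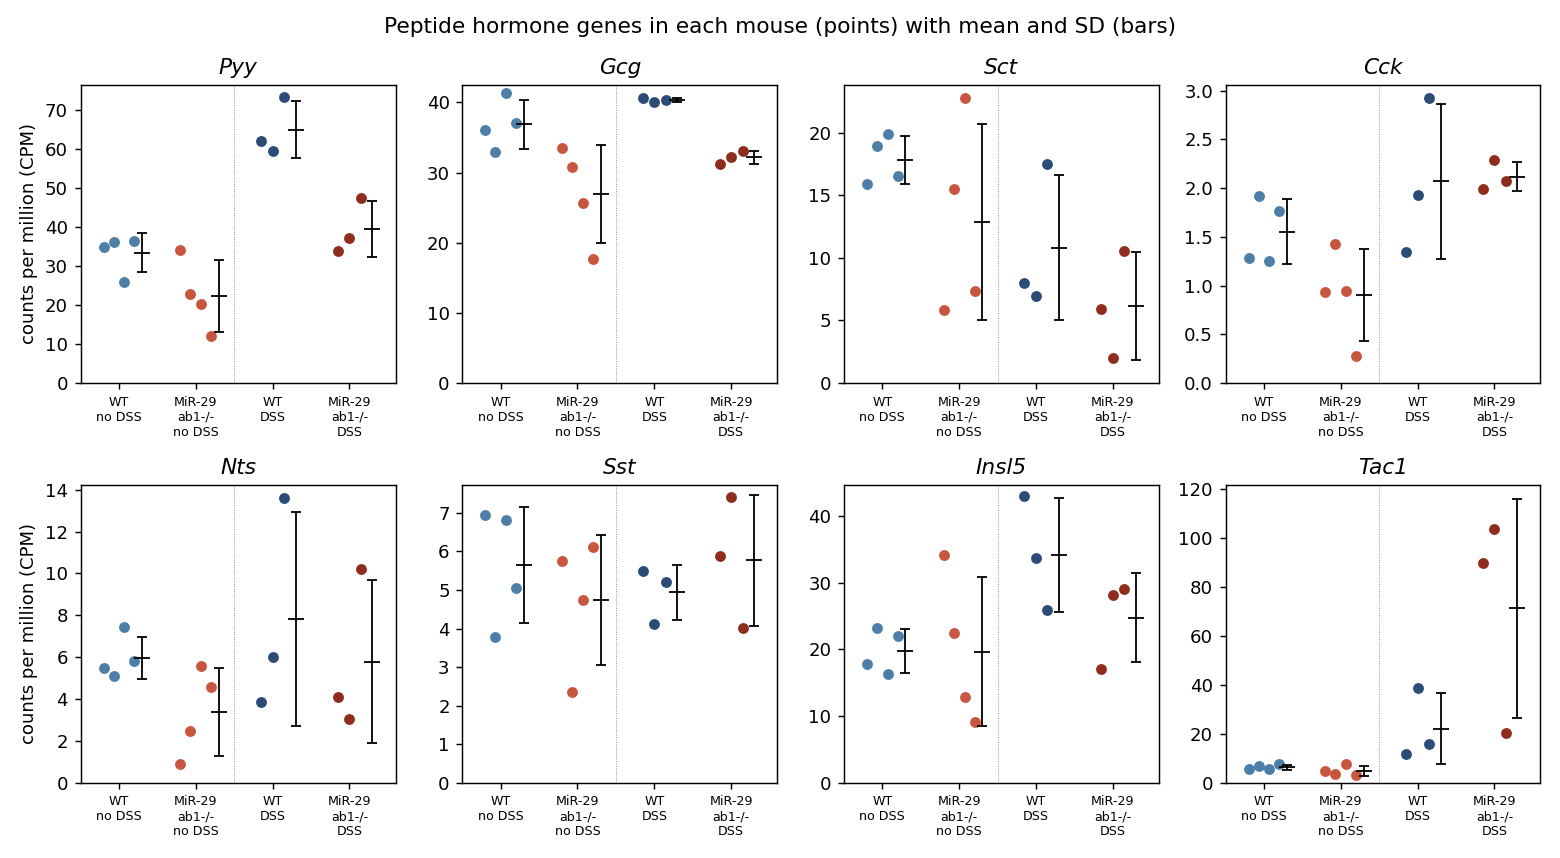
CPM of the 8 hormone genes, with a panel for each gene, an axis from 0 and the 4 groups along the x axis. Points are single mice in the order of their numbers, horizontal ticks with bars are the mean ± SD (n = 4 without DSS, n = 3 after DSS), and the dotted line separates the experiments. The genotypes do not overlap for Pyy and Gcg after DSS, and 2 of 3 MiR-29ab1-/- mice stand far above all others for Tac1.

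The second comparison asked the same of mice after 3 days of DSS. Pyy was lower in the knockout at the unadjusted threshold, with no overlap between genotypes, and did not pass adjustment over the 14908 genes, as 0.0134% did. Unadjusted, lower calls made up 3.25% of those genes and higher calls 3.98%, against 1 and 0 of the 8 hormone genes. The median log2 fold change was -0.26 over the 8 genes, 5 of them below 0, and -0.01 over all genes. Every MiR-29ab1-/- mouse was below every WT mouse in CPM for 2 of the 8 genes, Pyy and Gcg, as for 11.0% of all tested genes, and none of the 8 was above in every mouse (2.34% of all).

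Pyy had 62.2, 59.5 and 73.4 CPM in WT mice 1 to 3 and 33.8, 37.3 and 47.5 CPM in MiR-29ab1-/- mice 1 to 3. The log2 fold change was -0.59 ± 0.14 (SE, 95% interval -0.90 to -0.29), with adjusted p = 0.646 in edgeR. Leaving out each mouse in turn gave log2 fold changes of -0.68 to -0.48, all past the unadjusted threshold, which Pyy missed in a model of all 14 mice. Without both MiR-29ab1-/- mice of high mitochondrial share, an alternative chosen after seeing the data that leaves 1 knockout mouse, the value for Pyy was -0.44. Gcg had 40.6, 40.1 and 40.4 CPM in WT mice and 31.3, 32.2 and 33.1 CPM in MiR-29ab1-/- mice, the tightest of the 8 genes. Scaling libraries by TMM, edgeR's composition factors, brought Gcg in MiR-29ab1-/- mouse 2 to 37.2 CPM against 37.3 CPM in the lowest WT mouse. The fitted log2 fold change was -0.19 ± 0.10 (SE, 95% interval -0.42 to 0.04). That mouse had the highest mitochondrial share and the lowest TMM factor (0.865), and without it the Gcg value was -0.26 and passed the unadjusted threshold.

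Insl5 overlapped between genotypes after DSS, with 43.0, 33.7 and 25.9 CPM in WT mice and 17.0, 28.2 and 29.0 CPM in MiR-29ab1-/- mice (log2 fold change -0.33 ± 0.26 SE, 95% interval -0.93 to 0.28). Sct had 7.96, 6.96 and 17.5 CPM in WT mice and 5.88, 1.97 and 10.5 CPM in MiR-29ab1-/- mice (-0.74 ± 0.60, 95% interval -2.20 to 0.73). Nts was at 3.87 to 13.6 CPM in WT and 3.02 to 10.2 CPM in MiR-29ab1-/- mice (-0.35 ± 0.58, 95% interval -1.75 to 1.05). In both genotypes mouse 3 had the highest Sct and the highest Nts. Cck (1.35 to 2.93 and 1.99 to 2.29 CPM) and Sst (4.13 to 5.48 and 4.02 to 7.42 CPM) overlapped between WT and MiR-29ab1-/- mice, with log2 fold changes of 0.18 ± 0.35 and 0.38 ± 0.30 (SE, edgeR adjusted p = 0.921 and 0.763). Without MiR-29ab1-/- mouse 3 Sst passed the unadjusted threshold (log2 fold change 0.63), without WT mouse 1 the value of Cck was -0.06, and without WT mouse 3 that of Nts was 0.34.

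**Figure D3:**
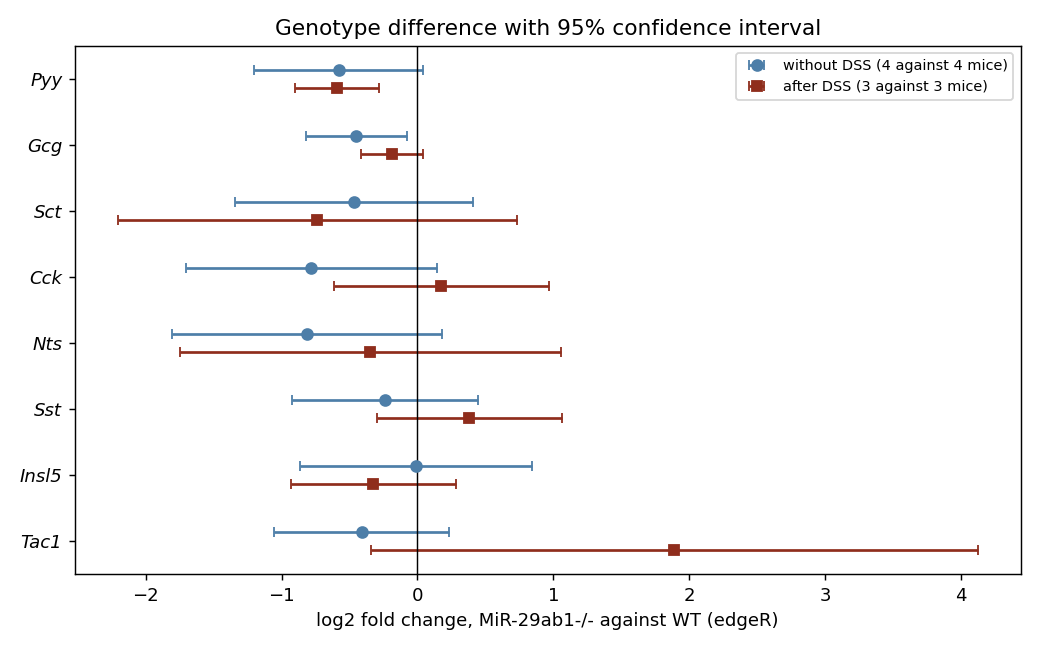
Log2 fold change of MiR-29ab1-/- against WT mice for the 8 hormone genes, from edgeR, without DSS (circles, 4 against 4 mice) and after DSS (squares, 3 against 3 mice). Bars are 95% confidence intervals and the vertical line marks no difference. The interval lies below 0 for Gcg without DSS and for Pyy after DSS, and that of Tac1 after DSS reaches from -0.35 to 4.12.

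Tac1 departed from the other hormone genes after DSS. It had 11.8, 38.7 and 15.7 CPM in WT mice and 90.1, 104 and 20.2 CPM in MiR-29ab1-/- mice, which is 2267 reads in knockout mouse 2 and 467 in knockout mouse 3. Knockout mouse 3 lay inside the WT range, and mice 1 and 2 lay far above it. The log2 fold change was 1.89 ± 0.85 (SE, 95% interval -0.35 to 4.12, edgeR adjusted p = 0.670), and DESeq2 gave 1.90, past the unadjusted threshold. Without knockout mouse 3, the lowest of the group, the edgeR value was 2.35 and also passed it. Mice 1 and 2 were also the libraries with 14.8% and 20.2% mitochondrial reads, against 7.43% in knockout mouse 3 and 6.15% to 8.81% in WT mice. With both left out, the log2 fold change of the remaining knockout mouse was -0.10, an alternative chosen after seeing the data that takes its spread from the WT mice. The 12 enteric neuron markers summed to 4.84 to 7.47 CPM in MiR-29ab1-/- and 5.74 to 6.78 CPM in WT mice after DSS, with Nos1 at 0, and the leukocyte markers (10 genes) to 64.6 to 157 and 50.4 to 96.0 CPM. Sst was also above its WT range (4.13 to 5.48 CPM) in knockout mice 1 and 2, at 5.88 and 7.42 CPM, and below it in mouse 3 (4.02 CPM). The part of the mitochondrial share, of neurons or of leukocytes in the Tac1 values was not tested.

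**Figure D4:**
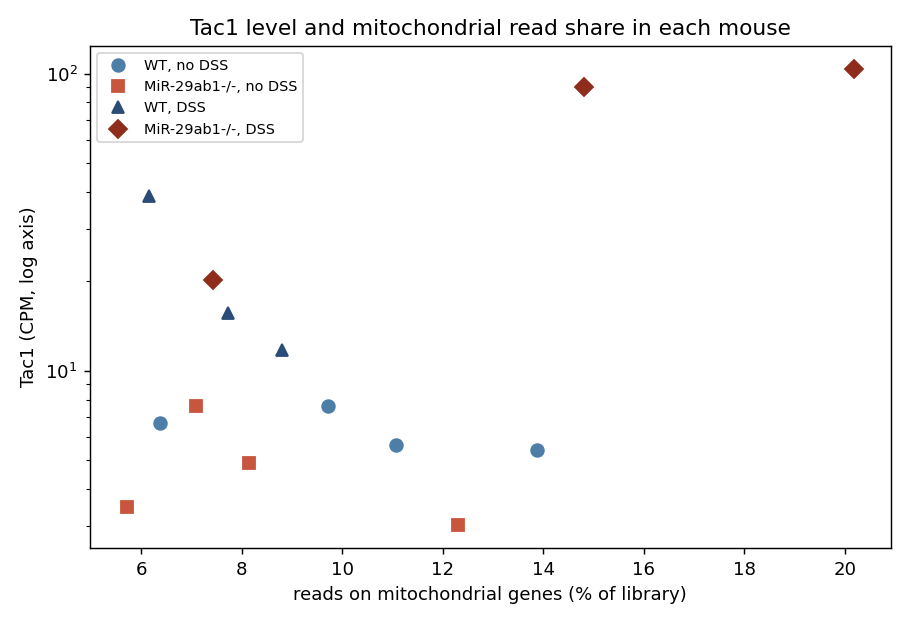
Tac1 level (CPM, log axis) against the share of reads on mitochondrial genes (%) in each of the 14 mice, marked by group. MiR-29ab1-/- DSS mice 1 and 2 have the highest Tac1 (90.1 and 104 CPM) and the highest mitochondrial shares (14.8% and 20.2%), whereas a WT mouse without DSS at 13.9% has 5.42 CPM.

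The third comparison set the DSS experiment against the untreated experiment within each genotype. DSS and the experiment cannot be told apart here, because the mice with and without DSS stand in separate count tables with no group in common. The tables also differ in their gene annotation, though each of the 8 genes had the same coordinates and length in both. The goblet cell gene Muc2 had 21.8 to 168 CPM without DSS and 3066 to 8514 CPM after DSS. The part of annotation or counting in such differences was not tested. In WT mice 2 of the 8 genes, Pyy and Tac1, were higher in the DSS experiment at an adjusted p under 0.05, where 20.0% of all 16196 genes rose and 17.9% fell. In MiR-29ab1-/- mice 4 of the 8, Pyy, Gcg, Cck and Tac1, were higher, against 23.0% of genes higher and 22.6% lower, and no hormone gene was lower in either genotype. The median log2 fold change over the 8 genes was 0.63 in WT and 0.90 in MiR-29ab1-/- mice, with -0.02 and -0.03 over all genes. With a score of epithelial genes as covariate, none of the 8 was called in either genotype. The log2 fold changes then were 1.21 for Pyy and 1.41 for Tac1 in WT mice, and 1.20 for Pyy, 0.82 for Gcg, 0.67 for Cck and 3.77 for Tac1 in MiR-29ab1-/- mice. The calls over all genes fell from 3235 higher and 2904 lower to 274 and 184 in WT mice and from 3724 and 3664 to 499 and 385 in MiR-29ab1-/- mice. The 11 epithelial markers behind that score summed to 13350 to 17549 CPM without DSS and 24107 to 26874 CPM after DSS, without overlap.

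Pyy rose by nearly the same amount in both genotypes, with a log2 fold change of 1.19 ± 0.25 (SE, edgeR adjusted p = 0.00287) in WT mice, from 33.4 ± 4.99 to 65.1 ± 7.39 CPM (SD, n = 4 and 3), and 1.19 ± 0.26 (edgeR adjusted p = 0.00230) in MiR-29ab1-/- mice, from 22.3 ± 9.17 to 39.5 ± 7.11 CPM. Tac1 rose by 2.01 ± 0.58 on the log2 scale in WT mice (edgeR adjusted p = 0.0185), from 5.42 to 7.64 CPM without DSS to 11.8 to 38.7 CPM. Without WT DSS mouse 2 the value was 1.39 (edgeR adjusted p = 0.0986), and without untreated WT mouse 1 it was 1.93 (edgeR adjusted p = 0.0501). In MiR-29ab1-/- mice Tac1 rose by 4.32 ± 0.62 (edgeR adjusted p = 2.25e-04), from 3.02 to 7.65 CPM without DSS to 20.2 to 104 CPM. With both mice of high mitochondrial share left out, Tac1 rose by 2.34. Gcg rose by 0.63 ± 0.16 in MiR-29ab1-/- mice (edgeR adjusted p = 0.00446), and in WT mice its log2 fold change was 0.37 ± 0.16 (edgeR adjusted p = 0.0764). Cck rose by 1.60 ± 0.41 in MiR-29ab1-/- mice (edgeR adjusted p = 0.00512), from 0.281 to 1.43 CPM without DSS to 1.99 to 2.29 CPM, and in WT mice its log2 fold change was 0.64 ± 0.39 (edgeR adjusted p = 0.216). Leaving out both mice of high mitochondrial share left 1 knockout mouse after DSS, with values of 0.57 for Gcg (edgeR adjusted p = 0.0960) and 1.46 for Cck (edgeR adjusted p = 0.0881).

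Insl5 had 25.9 to 43.0 CPM after DSS and 16.2 to 23.2 CPM without in WT mice (log2 fold change 1.01 ± 0.38 SE, edgeR adjusted p = 0.0513). DESeq2 gave the same fold change with adjusted p = 0.0118. In MiR-29ab1-/- mice its value was 0.71 ± 0.38 (edgeR adjusted p = 0.149), and 1.12 (adjusted p = 0.0150) without untreated mouse 1. Sct was the only one of the 8 with a negative value in both genotypes, at -0.48 ± 0.53 in WT and -0.75 ± 0.54 in MiR-29ab1-/- mice (SE, edgeR adjusted p = 0.501 and 0.284). Nts (0.63 ± 0.54 and 1.10 ± 0.55) and Sst (0.05 ± 0.32 and 0.68 ± 0.32) missed the adjusted threshold in both genotypes, with edgeR adjusted p of 0.377 and 0.119 for Nts and 0.914 and 0.0989 for Sst. Without MiR-29ab1-/- DSS mouse 3 the value of Sst in the knockout was 0.93 (edgeR adjusted p = 0.0357).

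**Figure D5:**
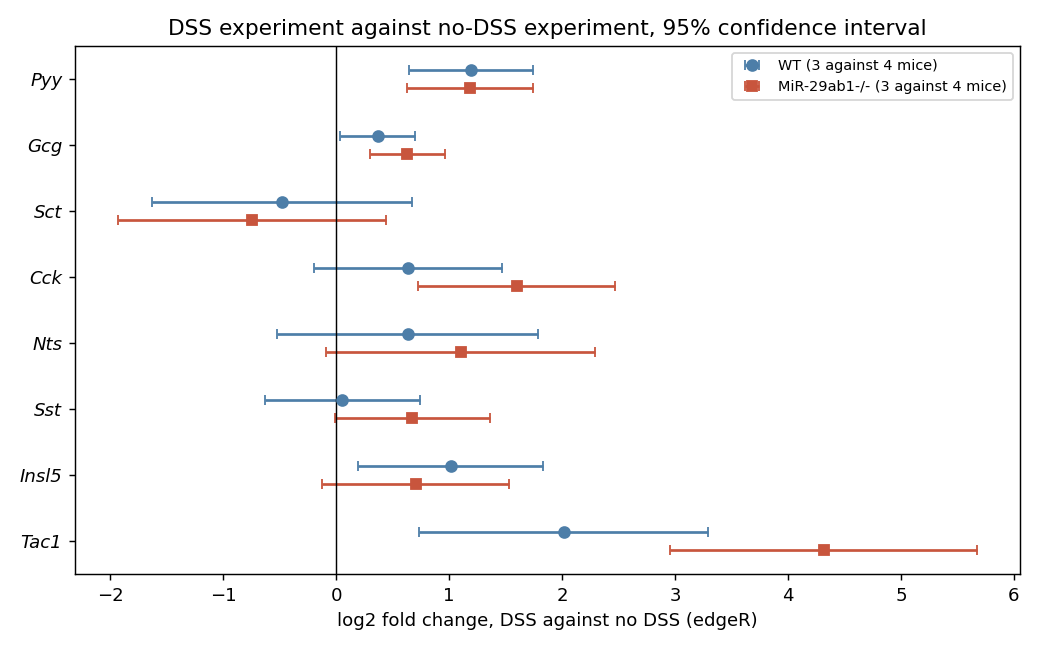
Log2 fold change of the DSS experiment against the untreated experiment for the 8 hormone genes, from edgeR, in WT mice (circles) and MiR-29ab1-/- mice (squares), 3 against 4 mice each. Bars are 95% confidence intervals. The intervals of Pyy, Gcg and Tac1 lie above 0 in both genotypes, and those of Sct, Nts and Sst include 0 in both.

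Whether the genotype difference itself changed with DSS was tested as an interaction over all 14 mice. Of the 8 genes only Tac1 passed the unadjusted threshold, with an interaction of 2.30 ± 0.84 on the log2 scale (SE, 95% interval 0.46 to 4.14, edgeR adjusted p = 0.985), and no gene of the 16196 passed adjustment, whereas 273 were higher (1.69%) and 368 lower (2.27%) unadjusted. Without MiR-29ab1-/- DSS mouse 2 the Tac1 interaction was 1.85 and without both mice of high mitochondrial share it was 0.30, neither past the threshold. The fitted genotype difference of Pyy was -0.58 without DSS and -0.59 after DSS, and its interaction was -0.01 (95% interval -0.80 to 0.79). That interval is too wide to show that the difference was the same. For Cck the interaction was 0.96 ± 0.57 (95% interval -0.25 to 2.17), which became 1.27 without untreated MiR-29ab1-/- mouse 2 and 1.31 without WT DSS mouse 3, both past the unadjusted threshold.

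Tac1 is shown with its promoter because its level spanned the widest range between single mice, from 3.02 to 104 CPM. The RefSeq start lies 182 bases from the gene's start in the count tables, and the window is chr6:7554811-7555110 on the plus strand of GRCm38.p6 (RefSeq), from 250 bases before to 50 after the start, with the E box CANNTG in capitals.
Tac1: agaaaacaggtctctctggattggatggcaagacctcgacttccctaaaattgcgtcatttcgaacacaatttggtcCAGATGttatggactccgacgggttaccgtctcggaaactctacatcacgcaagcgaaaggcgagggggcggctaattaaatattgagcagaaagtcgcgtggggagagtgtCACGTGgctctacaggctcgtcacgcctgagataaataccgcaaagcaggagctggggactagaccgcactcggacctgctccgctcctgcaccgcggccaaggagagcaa
TGACG, the core of the cAMP response element, was found at 2 places in this Tac1 window, both strands counted, and 20.8% of promoters held it. The whole element TGACGTCA, which contains that core, was present in the window of Sst and in none of the other 7 genes (1.79% of promoters).

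Across the 14 mice, after the mean of each experiment was subtracted from log2 CPM, Pyy and Gcg varied together (Pearson's r = 0.86), as did Pyy and Insl5 (0.76) and Sct and Nts (0.77), whereas Nts and Insl5 ran against each other (-0.43). These correlations are descriptions over 14 mice that share 2 experiments, their genotypes and their libraries. Of 14245 genes, St3gal3, a sialyltransferase, was the most like both Pyy (r = 0.91) and Gcg (r = 0.91). Tusc2 (0.89) and the pancreatic polypeptide gene Ppy (0.88), which lies beside Pyy, followed for Pyy, and Tmc7 (0.89) and Zfand6 (0.89) for Gcg. Insl5 was followed most closely by K230015D01Rik (0.92), Pappa2 (0.89) and Tusc2 (0.89), Sct by Mpst (0.92), Cox6b2 (0.89) and Slc22a18 (0.89), and Nts by Slc35d1 (0.88), Ugt8a (0.86) and the prohormone convertase Pcsk5 (0.85). Cck went with Syap1, Mycbp (both 0.84) and Gm6505 (0.83), and Tac1 with Gm26616 (0.90), Plscr1 (0.86) and S100a11 (0.85). The 3 genes most like Sst were all mitochondrial, mt-Ty (0.91), mt-Tp (0.87) and mt-Co1 (0.86), and Sst was highest (7.42 CPM) in the mouse with the highest mitochondrial share.

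Of the 10 tested granins and prohormone-processing enzymes, which package and cut these peptides, 4 passed the unadjusted threshold as lower in the untreated knockout and none as higher (1.58% and 2.09% of all genes tested), with a median log2 fold change of -0.52. Chromogranin A (Chga) had 50.8 to 79.7 CPM in WT and 33.2 to 40.8 CPM in MiR-29ab1-/- mice (log2 fold change -0.93 ± 0.13 SE, edgeR adjusted p = 0.0971). Chgb (-0.91 ± 0.16, edgeR adjusted p = 0.368) and the convertase inhibitor gene Pcsk1n (-0.86 ± 0.21, edgeR adjusted p = 0.858) did not overlap between genotypes either. Of all genes tested without DSS, 0.939% were lower without overlap. Pcsk1, the convertase that cuts proglucagon to glucagon-like peptides, had -0.49 ± 0.20 (edgeR adjusted p = 1.00) with overlap, and was named after its values were seen. After DSS 2 of 10 were lower (3.25% of all genes tested), Chga (-0.44 ± 0.16, edgeR adjusted p = 0.646) and Pcsk1 (-0.41 ± 0.17, edgeR adjusted p = 0.657), both without overlap (11.0% of all genes tested), and none higher. Among genes of secretion and excitability, 2 of 13 were lower without DSS, both without overlap: Rab3c, a granule-docking GTPase, at 1.16 to 1.59 CPM in WT and 0.268 to 0.683 CPM in MiR-29ab1-/- mice (edgeR adjusted p = 0.779), and Ptprn, a granule membrane protein, at -0.71 ± 0.25 (edgeR adjusted p = 1.00). After DSS 13 genes of this list were again tested, with Rab3a in place of Rab3c, and none passed.

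Of 17 transcription factors of the enteroendocrine lineage tested without DSS, 1 was higher (St18, 0.62 ± 0.26, edgeR adjusted p = 1.00) and none lower. Higher calls made up 2.09% of all genes tested. The fitted value was below 0 for 12 of these 17 factors, with a median log2 fold change of -0.34. Of 16 tested after DSS, 1 was lower (Sox4, at 9.51 to 12.9 CPM in WT and 3.79 to 7.13 CPM in MiR-29ab1-/- mice, edgeR adjusted p = 0.646). After DSS 12 of the 16 were below 0, with a median of -0.11. Of 5 enterochromaffin genes tested, Tph1, the rate-limiting enzyme of serotonin synthesis, was lower without DSS (-0.63 ± 0.28, edgeR adjusted p = 1.00) and Ddc, which acts after it, was lower after DSS (-0.36 ± 0.15, edgeR adjusted p = 0.657). Over all genes tested, lower calls made up 1.58% without DSS and 3.25% after DSS. Of 18 other gut peptide genes, few reached the filter: 5 were tested without DSS and none passed, and 3 after DSS, where Ppy was lower (-1.52 ± 0.50, edgeR adjusted p = 0.646). St18, Tph1, Ddc and Ppy overlapped between genotypes and were named after their values were seen. Gip, the hormone of K cells in the upper small intestine, was at 0 in every mouse after DSS.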

How the data were processed

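RNA was extracted with TRIzol and libraries were made with a directional kit, per the labels. The deposited tables hold raw counts per gene, which the authors made after aligning reads with HISAT2, and the submitters' processing notes also name DESeq2, both without a version. The counter, its strand setting and the genome build are not given in the sources used here, but the coordinates of the 8 genes matched GRCm38. The tables also hold 14 FPKM columns and the authors' own comparisons of the genotypes (group means, fold changes and p-values), which were not used.

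The main test was the quasi-likelihood F test of edgeR 4.0.16 (R 4.3.3, TMM scaling), after filterByExpr at 10 counts and a total of 15, with Benjamini-Hochberg adjustment over all genes tested. All 8 members passed the filter in every comparison. Each experiment was fitted alone for the genotype, and all 14 mice were fitted together, over the 54189 gene identifiers shared by both tables, for DSS and the interaction. Rows of unannotated genes (418 and 189) stayed out of that model. Genotype and interaction calls used an unadjusted p under 0.05, the study's own threshold, and DSS calls an adjusted p under 0.05. DESeq2 1.42.0 was an alternative. The floor is 3 reads and covers counting error only. The tests were checked on simulated data. From the lists, genes were named where the genotypes did not overlap in CPM at an unadjusted p under 0.05, at most 4 a list, and for each member the 3 genes with the highest correlation. The members and lists were chosen with earlier results of these data known.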

Additional observations from a re-analysis of the deposited data

Results flagged for a closer look

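Pyy in WT mice without DSS stood out because 1 mouse lay far from the other 3. WT mouse 3 had 26.0 CPM against 35.0, 36.2 and 36.5 CPM, a gap of 0.862 of the group's range, past Dixon's critical value for 4 samples. Of the 16 sets of values tested in this way it was the only one. Chance flags about 1 set in 20, so 1 flag among 16 sets is not unusual. Without this mouse the genotype difference of Pyy was -0.69 on the log2 scale and passed the unadjusted threshold, against -0.58 with it, which did not.

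Tac1 differed in its genotype effect between the experiments, with an interaction of 2.30 on the log2 scale (95% interval 0.46 to 4.14, edgeR adjusted p = 0.985). Its genotype difference was -0.41 without DSS and 1.89 after DSS. The interaction was 0.30, not past the unadjusted threshold, without the 2 MiR-29ab1-/- DSS mice of highest mitochondrial share.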

How the results depend on the processing

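Without DSS, 1 hormone gene was lower in MiR-29ab1-/- mice, against 2 with DESeq2, 2 in a model of all 14 mice and 1 to 3 without single mice. After DSS, higher calls went from 0 to 1 with DESeq2 and 1 with all 14 mice (0 to 2 without single mice), and lower calls from 1 to 0 with all 14 mice (1 to 2 without single mice). Higher calls with DSS fell to 0 in both genotypes with the epithelium score as covariate, from 2 in WT (1 to 2 without single mice) and from 4 in MiR-29ab1-/- mice, where they were 2 without the 2 mice of most mitochondrial reads. Under that covariate the value of Pyy was 1.21 in WT and 1.20 in MiR-29ab1-/- mice, against 1.19 in both without it. Interaction calls went from 1 to 0 without those 2 mice, and 0 to 2 without single mice. The causes were not tested.

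With the replicate number as a block, the untreated comparison gave 3 lower genes, Pyy (-0.65), Gcg (-0.48) and Nts (-1.03). Mice of the same number correlated at -0.19 to 0.15 and only number 2 matched its own best, so the numbers were not taken as pairs. The block was not run after DSS, since the numbers of the table columns match no label numbers.

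Directions turned for genes that were not called. With the epithelium covariate the log2 values were 0.39 for Nts after DSS, -0.33 for Cck and -1.37 for Nts with DSS in WT, and -0.64 for Nts with DSS in MiR-29ab1-/- mice. Without the 2 mice they were 0.40 for Nts, -0.29 for Sst and -0.10 for Tac1 after DSS, and 0.13 for Pyy, 0.43 for Sct and -0.059 for Sst in the interaction. Without single mice the ranges crossed 0 for Sst (-0.39 to 0.0029) and Insl5 (-0.43 to 0.22) without DSS, Cck (-0.055 to 0.53) and Nts (-0.96 to 0.34) after DSS, Nts (-0.046 to 0.96) and Sst (-0.083 to 0.20) with DSS in WT, and Pyy (-0.21 to 0.28), Sct (-0.84 to 0.28), Nts (-0.14 to 1.15) and Insl5 (-0.54 to 0.10) in the interaction.

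Over all genes, no filter on low counts gave 703 higher and 396 lower without DSS (322 and 244 with it), 1037 and 782 after DSS (593 and 485), and 483 and 661 in the interaction (273 and 368). Without the 2 mice the counts were 133 and 138 after DSS, 2124 and 1457 with DSS in MiR-29ab1-/- mice (3724 and 3664 with them) and 82 and 195 in the interaction. Leaving out single mice gave 268 to 1288 higher and 215 to 1242 lower after DSS, and 149 to 548 and 244 to 920 in the interaction. The prior count for genes under the filter was not varied, since all 8 passed it. TMM scaling moved the Gcg means after DSS to 38.5 and 33.8 CPM.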

Other observations

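Tuft cells, chemosensory cells of the same epithelium, showed the opposite direction to the granins in untreated mice: 4 of 6 marker genes passed the unadjusted threshold as higher in the knockout (2.09% of all genes tested), none as lower (1.58%), with a median log2 fold change of 0.66. Avil had 12.8 to 20.6 CPM in WT and 22.8 to 31.7 CPM in MiR-29ab1-/- mice (edgeR adjusted p = 0.741). Dclk1 (24.0 to 41.5 against 42.4 to 63.3 CPM, edgeR adjusted p = 1.00) and Gfi1b (0.624 to 1.11 against 1.33 to 2.25 CPM, edgeR adjusted p = 1.00) did not overlap either. Of all genes tested without DSS, 1.04% were higher without overlap. After DSS none of the 6 passed, and the interaction passed for none unadjusted.

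Receptors for the 8 peptides were scarce, with 5 of 21 tested without DSS and 4 of 21 after DSS. After DSS the somatostatin receptors Sstr2 (1.37 to 2.91 CPM in WT and 0.733 to 0.907 CPM in MiR-29ab1-/- mice, edgeR adjusted p = 0.655) and Sstr3 (0.683 to 1.22 and 0.137 to 0.518 CPM, edgeR adjusted p = 0.646) were lower without overlap, while Sst itself did not pass. The lowest Sstr3 value, 0.137 CPM in MiR-29ab1-/- mouse 2, was at the floor of 3 reads. Of all genes tested after DSS, 3.25% were lower at the unadjusted threshold and 11.0% were lower without overlap.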
